A study of Mus musculus with 18 samples.

Results

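Zbp1 and 9 genes that carry out necroptosis and pyroptosis were followed in mouse peritoneal macrophages. The 10 genes, Zbp1, Ripk1, Ripk3, Mlkl, Casp8, Casp1, Casp4, Gsdmd, Nlrp3 and Pycard, were chosen by name, and they stand against 13598 genes with a value in the files. Macrophages came from C57BL/6 mice with unaltered TLR4 (TLR4-WT) or with a CRISPR/Cas9 knock-in that replaces a lysine of the TLR4 TIR domain by arginine (TLR4-K730R and TLR4-K810R). They were collected from the peritoneal cavity after thioglycolate injection and were mock-treated or given 100 ng/ml LPS for 6 h. RNA from 3 libraries of each of the 6 groups was sequenced, 18 libraries in all. All groups share the elicitation. The labels do not say whether the 3 libraries of a group came from separate mice, so p-values measure the spread between these libraries, which may be technical.

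Necroptosis and pyroptosis are lytic forms of cell death. ZBP1 is an interferon-induced sensor of Z-form nucleic acids that binds RIPK3 and RIPK1, and RIPK3 phosphorylates MLKL, which then breaks the plasma membrane. Caspase-8 restrains that route and starts apoptosis. In pyroptosis, NLRP3 joins the adaptor ASC, encoded by Pycard, to activate caspase-1, whereas mouse Casp4, also called caspase-11, senses cytosolic LPS; both caspases cleave gasdermin D, encoded by Gsdmd, into a pore-forming fragment.

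Levels are FPKM, the authors' length- and library-scaled measure, of the first or last exons of a gene, whichever summed to more. Of the 10 genes, 9 had rows under their own gene number, and all 9 were above 1 FPKM in all 18 libraries. Ripk1 had no row of its own. Rows at its position (chr13:34002363-34037147, plus strand) were listed under Gm17084, a processed pseudogene that lies inside it, so that Ripk1 is given by position only and cannot be told apart from it. Differences are on the log2(FPKM + 1) scale with a 95% interval, and a gene was called at an adjusted p below 0.01 in limma over 9707 genes. The read depth behind an FPKM is unknown. After LPS, the median over all genes tested was -0.28 (TLR4-WT), -0.36 (TLR4-K730R) and -0.26 (TLR4-K810R), and changes are to be read relative to it.

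Libraries of 1 group correlated at 0.961 to 0.975 over genes. Of 13 macrophage markers 12 were listed and 11 were above 1 FPKM in every library of every group. Their sum was 21735 to 22679 FPKM in mock-treated TLR4-WT, 21025 to 21738 FPKM with K730R and 17622 to 20951 FPKM with K810R, and 12837 to 14931 FPKM over all LPS-treated libraries. B cell (4 of 7 markers listed), T cell (6 of 7), dendritic cell (3 of 6), mast cell (5 of 6) and eosinophil (2 of 5) lists summed to at most 5.25 FPKM in any library. A marker not listed or at 0 need not be absent. Among the macrophage markers Itgam was not listed, and Cd14 had a median of 0 FPKM over the 18 libraries and a highest value of 463 FPKM. Neutrophil markers summed to 33.1 to 63.6 FPKM in mock and 182 to 248 FPKM after LPS, with S100a8 at 22.1 to 239 FPKM and Mmp8 at 4.97 to 20.6 FPKM over the libraries, Ly6g at no more than 0.644 FPKM and Cxcr2 at no more than 0.132. Tlr4 itself was called lower after LPS in all 3 genotypes (-1.03, -1.0 and -1.23) and in no comparison between genotypes; its level checks expression of the receptor gene and not the altered codon.

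Zbp1 (ENSMUSG00000027514, chr2:173206612-173218923, minus strand, GRCm38) showed the widest range of the 10 genes. Mock-treated TLR4-WT libraries had 22.1, 26.7 and 20.7 FPKM. Mock-treated TLR4-K730R libraries had 6.16, 6.09 and 7.25 FPKM, and TLR4-K810R libraries 6.88, 6.09 and 6.99 FPKM. Every mock-treated library of either variant thus lay below every TLR4-WT library, and the variants overlapped with each other. After LPS the TLR4-WT libraries had 243, 240 and 238 FPKM. TLR4-K730R had 231, 227 and 244 FPKM after LPS and TLR4-K810R 207, 178 and 214 FPKM. The order of the group means was therefore TLR4-K730R mock (6.50 ± 0.65, SD, n = 3), TLR4-K810R mock (6.65 ± 0.49), TLR4-WT mock (23.2 ± 3.1), and after LPS TLR4-K810R (200 ± 19), TLR4-K730R (234 ± 8.6) and TLR4-WT (240 ± 2.4), with no call between the variants in mock or among the 3 genotypes after LPS.

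**Figure D1:**
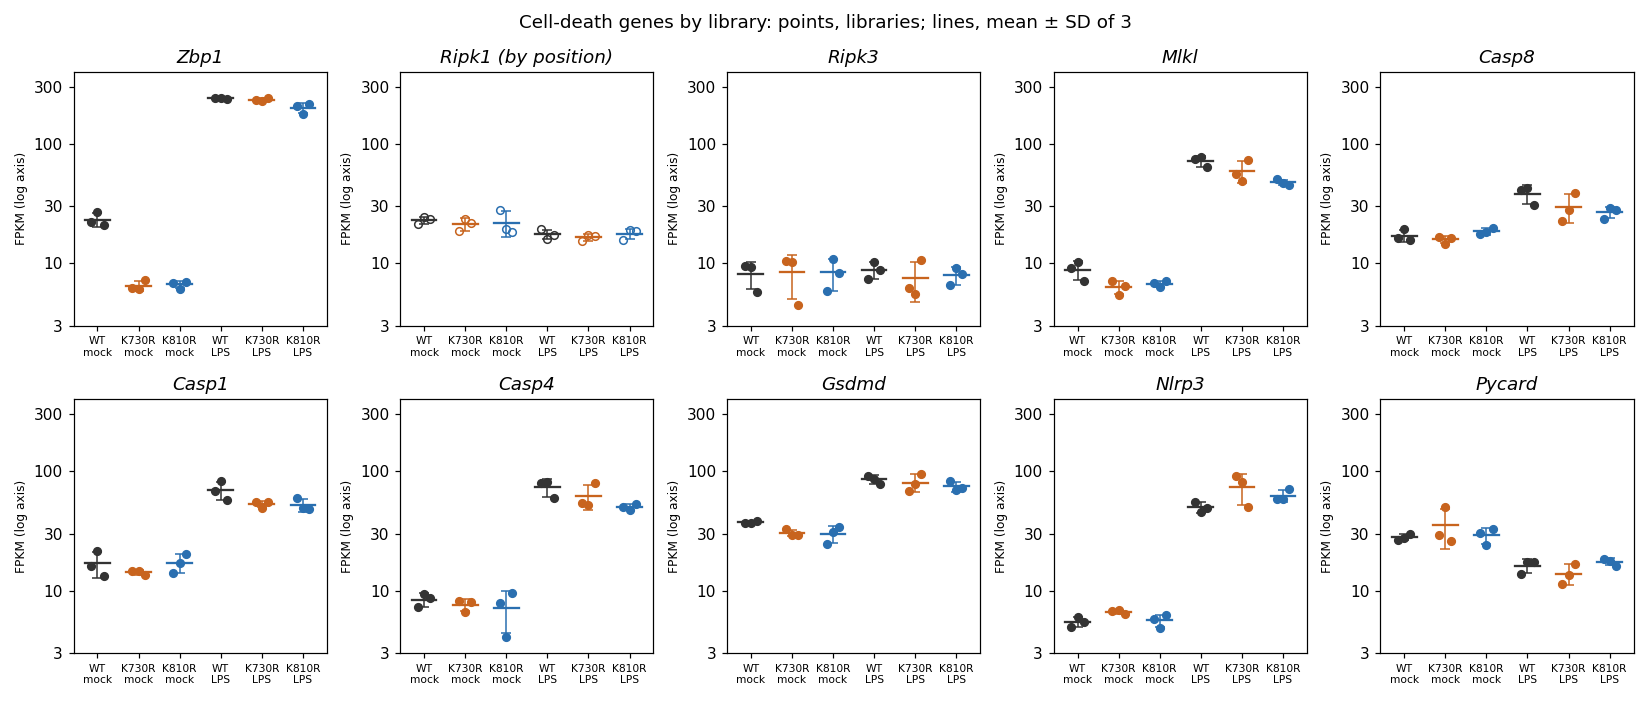
FPKM (log axis) of the 10 genes in each library of the 6 groups, with the mean and SD of 3 libraries; open symbols mark Ripk1, taken by position. Mock-treated Zbp1 lies between 6.09 and 7.25 FPKM in the variants and between 20.7 and 26.7 FPKM in TLR4-WT, and Ripk3 stays between 4.49 and 11.0 FPKM in all groups.

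The first question was whether the TLR4 variants differ from TLR4-WT at rest. In mock-treated macrophages Zbp1 was the single member called in either variant, and it was lower in both. It differed by -1.69 in TLR4-K730R (interval -1.92 to -1.45, adjusted p 7.94e-07) and by -1.66 in TLR4-K810R (-1.89 to -1.42, adjusted p 4.08e-07). As background, 0.216% of all genes tested were called lower and 0.0515% higher in TLR4-K730R, and 0.649% lower and 0.927% higher in TLR4-K810R. In means of FPKM, TLR4-WT was 3.57-fold above TLR4-K730R and 3.49-fold above TLR4-K810R. Both comparisons share the 3 mock-treated TLR4-WT libraries. Leaving out each library in turn, or a replicate number from every group, kept both calls. The differences then lay between -1.83 and -1.54 in TLR4-K730R and between -1.76 and -1.50 in TLR4-K810R.

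The other 8 genes measured under their own number were not called in mock. Mlkl, the necroptosis effector, differed by -0.42 in TLR4-K730R (adjusted p 0.464) and by -0.34 in TLR4-K810R (adjusted p 0.332). Gsdmd differed by -0.29 (adjusted p 0.65) and by -0.32 (adjusted p 0.28). By overlap of libraries, 3 of the 9 genes, Zbp1, Mlkl and Gsdmd, lay wholly below TLR4-WT in each variant, against 7.45% of all genes tested in TLR4-K730R and 6.64% in TLR4-K810R. Nlrp3 lay wholly above it in TLR4-K730R, and no member did in TLR4-K810R, against 8.91% and 14.2% of all genes. Ripk3 differed by -0.02 in TLR4-K730R (-0.65 to 0.62) and by 0.02 in TLR4-K810R (-0.61 to 0.66).

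Interferon signalling genes were read beside Zbp1, since interferon induces it. Of 14 tested, 2 were called in mock in each variant, both lower, with a list median of -0.26 in TLR4-K730R and -0.34 in TLR4-K810R against 0.03 and 0.07 over all genes tested. These were Irf7, a transcription factor that amplifies type I interferon, and Usp18, a negative regulator of the interferon receptor. Irf7 had 74.6, 117 and 140 FPKM in mock-treated TLR4-WT, 6.86, 8.82 and 28.7 FPKM in TLR4-K730R and 13.0, 14.3 and 18.3 FPKM in TLR4-K810R. It differed by -3.03 (adjusted p 0.000371) and -2.75 (adjusted p 0.000388). Usp18 had 16.6 to 23.1 FPKM in TLR4-WT, whereas TLR4-K730R libraries had 6.00 to 6.24 FPKM and TLR4-K810R libraries 3.39 to 4.58 FPKM, and it differed by -1.60 (adjusted p 0.000217) and -2.11 (adjusted p 4.39e-06). Neither gene overlapped between TLR4-WT and a variant in mock. Irf1, another interferon regulatory factor, was not called (-0.31 and 0.52, adjusted p 0.872 and 0.383).

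Markers of intestinal epithelium moved with the same comparison. Their 12 genes summed to 0.118 to 0.67 FPKM in mock-treated TLR4-WT, where 10 of them were listed at 0 in all libraries, and the TLR4-K730R and TLR4-K810R sums were 53.0 to 81.8 FPKM and 62.4 to 142 FPKM. After LPS they summed to 60.3 to 67.0 FPKM in TLR4-K730R, against 0.0928 to 16.6 FPKM in TLR4-WT. In LPS-treated TLR4-K810R the sum was 0.127 to 24.3 FPKM. Mesothelium and fibroblast markers, 7 of 8 listed, summed to 31.4 to 49.1 FPKM in mock-treated TLR4-WT, 59.1 to 68.0 FPKM with K730R and 116 to 277 FPKM with K810R. After LPS that list summed to 43.2 to 143 FPKM, 47.3 to 47.9 FPKM and 103 to 124 FPKM, in the same order. Mast cell markers, 5 of 6 listed, summed to 4.70 to 5.25 FPKM, 0.494 to 2.58 FPKM and 0.797 to 2.64 FPKM in mock, and neutrophil markers to 33.1 to 47.5 FPKM, 46.2 to 52.4 FPKM and 54.0 to 63.6 FPKM, again in that order. The part of these lists, and of the lower macrophage marker sum of mock-treated TLR4-K810R, in the mock difference was not tested. In bulk RNA, fewer cells of a type and less RNA per cell cannot be told apart.

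**Figure D2:**
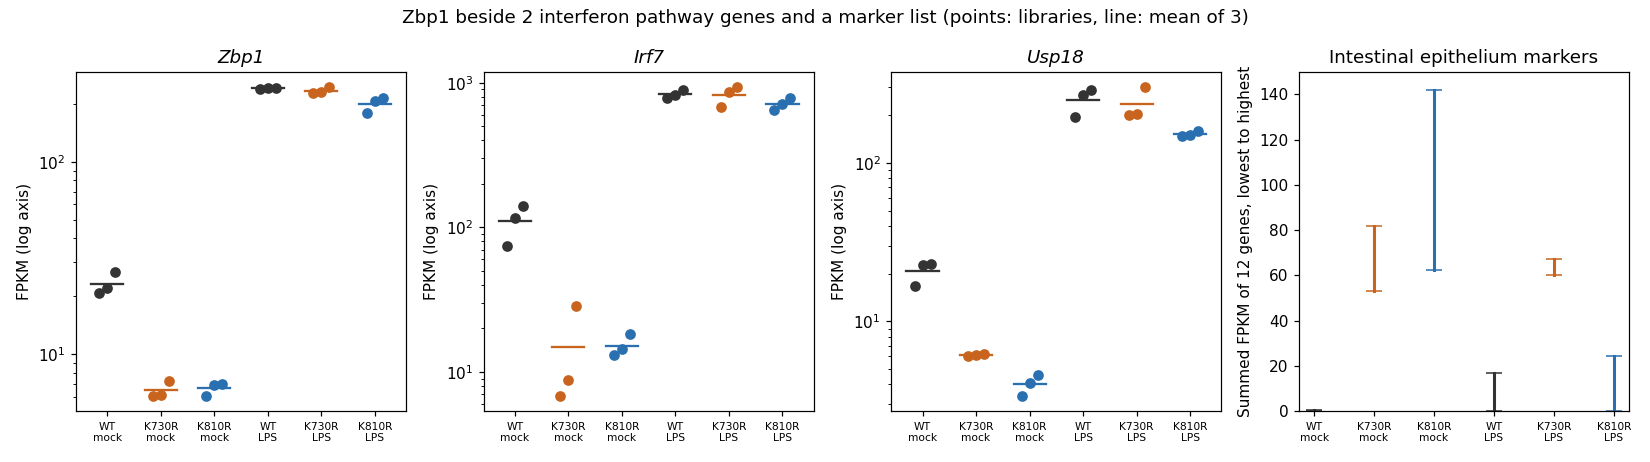
FPKM (log axis) of Zbp1, Irf7 and Usp18 in each library, with the mean of 3, and the lowest and highest summed FPKM of 12 intestinal epithelium markers in each group. In mock-treated libraries all 3 genes lie lower in both variants than in TLR4-WT, and the marker sum of LPS-treated TLR4-K730R lies between 60.3 and 67.0 FPKM.

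The second question was how the genes respond to LPS. In TLR4-WT 7 of the 9 genes were called higher and 1 lower, against 10.4% and 23.9% of all genes tested. In TLR4-K730R the counts were also 7 and 1, against 9.32% and 26.5%. In TLR4-K810R 6 were called higher and 0 lower, against 9.08% and 19.7%. The median difference of the 9 genes was 1.98, 1.83 and 1.56 in the 3 genotypes, and that of all genes tested -0.28, -0.36 and -0.26. The median-of-ratios scaling centred the genes near 0 and moved the share of calls that were higher from 30.4% to 52.0% in TLR4-WT, from 26.1% to 53.1% in TLR4-K730R and from 31.5% to 51.3% in TLR4-K810R.

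Zbp1 rose by 3.33 in TLR4-WT (3.10 to 3.56, adjusted p 3.91e-12), 4.97 in TLR4-K730R (4.74 to 5.20, adjusted p 2.29e-14) and 4.71 in TLR4-K810R (4.48 to 4.94, adjusted p 5.2e-14). In means of FPKM it was 10.4-fold, 36.0-fold and 30.05-fold above mock. The response, LPS minus mock, was larger in the variants, by 1.65 in TLR4-K730R (1.32 to 1.97, adjusted p 0.00015) and by 1.39 in TLR4-K810R (1.06 to 1.71, adjusted p 0.000375). After LPS the means of the variants were 234 and 200 FPKM against 240 FPKM in TLR4-WT. The larger response thus restates their lower mock level. These tests of the difference in response called 0.0412% and 0.124% of all genes, 4 and 12 genes. Zbp1 was the 1 member among them. With replicate number 1 or 2 left out of every group, neither difference in response was called (adjusted p 0.0598 to 0.0845). After LPS, Zbp1 differed from TLR4-WT by -0.04 in TLR4-K730R (-0.27 to 0.19, adjusted p 0.965) and by -0.27 in TLR4-K810R (-0.50 to -0.04, adjusted p 0.173). Irf7 showed a difference in response of 3.01 and 2.53 that was not called (adjusted p 0.0362 and 0.0343).

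The files listed 2 last exons of Zbp1 and no first exon. The upstream one, chr2:173213735-173213909, is exon 4 of a 4-exon transcript, which codes for 187 codons in GENCODE. The other, chr2:173206612-173207226, is exon 8 of an 8-exon transcript, which codes for 411 codons. The shorter transcript's exon held most of the signal, 72.9% ± 2.7 (SD, n = 3) in mock-treated TLR4-WT and 77.9% ± 2.5 after LPS, and between 70.2% and 83.1% in the means of the other groups. It was lower in both mock-treated variants, with 15.9, 18.9 and 15.8 FPKM in TLR4-WT, 4.56, 3.51 and 5.73 FPKM in TLR4-K730R and 5.67, 4.17 and 5.49 FPKM in TLR4-K810R. In a fit over 28182 exon events that level differed by -1.69 (adjusted p 3.86e-05) and -1.55 (adjusted p 2.67e-05). The longer transcript's exon went from 4.97 to 7.76 FPKM in TLR4-WT to 1.52 to 2.58 FPKM and 1.20 to 1.92 FPKM in the variants and was not called (-1.34 and -1.52, adjusted p 0.478 and 0.131). Replicate 2 of LPS-treated TLR4-K810R had 8.48 FPKM in that exon beside 47.6 and 49.4 FPKM in its sister libraries, and without it the mock differences were called (adjusted p 0.00382 and 0.000598). No share of a Zbp1 last exon changed by the test.

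Mlkl (ENSMUSG00000012519, chr8:111311797-111338177, minus strand) rose in all 3 genotypes. It had 9.17, 10.2 and 7.16 FPKM in mock-treated TLR4-WT and 74.3, 77.1 and 63.5 FPKM after LPS, a rise of 2.89 (2.57 to 3.21, adjusted p 4.4e-10). In TLR4-K730R it went from 7.07, 5.43 and 6.42 FPKM to 56.1, 48.4 and 72.9 FPKM, and in TLR4-K810R from 6.78, 6.30 and 7.13 FPKM to 50.6, 46.9 and 45.5 FPKM. Mock-treated and LPS-treated libraries did not overlap, and the rises in the variants were 3.03 and 2.65. After LPS all 3 TLR4-K810R libraries lay below all 3 TLR4-WT libraries. That difference of -0.57 (-0.90 to -0.25) was not called (adjusted p 0.0561), although it was called with limma library weights (adjusted p 0.008). Libraries of 4 of the 9 genes, Mlkl, Zbp1, Casp8 and Casp4, lay wholly below those of TLR4-WT in LPS-treated TLR4-K810R, against 7.89% of all genes tested. Nlrp3 lay wholly above, against 17.4% of all genes. None of the 5 was called.

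Ripk3 (ENSMUSG00000022221, chr14:55784995-55788865, minus strand), the kinase upstream of MLKL, did not pass the test in any genotype. Its libraries lay between 4.49 and 11.0 FPKM, and mock and LPS overlapped throughout. The differences after LPS were 0.11 (-0.52 to 0.75) in TLR4-WT, -0.12 (-0.75 to 0.51) in TLR4-K730R and -0.04 (-0.67 to 0.59) in TLR4-K810R. With the median-of-ratios scaling or quantile normalization the sign turned in both variants, and with library weights in TLR4-WT and TLR4-K810R. Ripk1, by position, had 21.3, 24.4 and 23.3 FPKM in mock-treated TLR4-WT and 19.3, 16.1 and 17.2 FPKM after LPS. It differed by -0.37, -0.35 and -0.27 after LPS in the 3 genotypes (adjusted p 0.0476, 0.0614 and 0.154), values close to the shift of all genes.

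Casp8 (ENSMUSG00000026029, chr1:58795374-58847503, plus strand) rose by 1.12 in TLR4-WT (0.76 to 1.47, adjusted p 5.32e-05), from 16.2, 19.3 and 15.6 FPKM to 41.3, 42.9 and 30.7 FPKM. It rose by 0.83 in TLR4-K730R (0.47 to 1.19, adjusted p 0.000737), from 14.6 to 16.7 FPKM up to 22.7 to 38.4 FPKM. That call was lost in a fit of its own 2 groups (adjusted p 0.0122) and without replicate 2 of every group (adjusted p 0.0253). In TLR4-K810R it had 17.6, 18.3 and 19.9 FPKM in mock and 23.6, 28.9 and 27.8 FPKM after LPS. These did not overlap, in a comparison where 4705 of 9707 genes had an unadjusted p below 0.05. The difference of 0.50 (0.14 to 0.86) was not called (adjusted p 0.027). It was called under the median-of-ratios scaling (0.76, adjusted p 0.00515), with quantile normalization, with library weights, and without replicate 3 of LPS-treated TLR4-K730R (adjusted p 0.00994), which enters only through the shared spread. The response of TLR4-K810R differed from that of TLR4-WT by -0.62, also without a call (adjusted p 0.285).

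Of the 2 first exons of Casp8, the downstream one was called after LPS. The upstream exon, chr1:58795374-58795738, begins one 9-exon transcript, and the downstream exon, chr1:58802502-58802693, begins the other. GENCODE gives both transcripts 480 codons. The downstream exon had 6.47, 7.42 and 4.50 FPKM in mock-treated TLR4-WT and 26.2, 30.8 and 21.95 FPKM after LPS. In TLR4-K730R it went from 7.62, 6.43 and 5.95 FPKM to 12.6, 17.7 and 21.7 FPKM, and in TLR4-K810R from 6.13, 5.12 and 11.5 FPKM to 17.02, 21.2 and 19.4 FPKM. LPS-treated libraries lay above mock-treated ones in each genotype. Its level rose by 1.95 (adjusted p 3.17e-05), 1.23 (adjusted p 0.00169) and 1.30 (adjusted p 0.00134), beside 7.15%, 6.65% and 6.17% of exon events called higher. Without replicate 3 of LPS-treated TLR4-K730R that genotype's rise was 1.06 (adjusted p 0.0108). The upstream exon, between 6.55 and 16.7 FPKM over all libraries, differed by 0.10, 0.36 and -0.48 and was not called (adjusted p 0.77, 0.218 and 0.119). The share of the downstream exon went from 35.8% to 68.9%, from 42.0% to 58.2% and from 40.3% to 71.8%. In the fit of shares over 9371 events this did not pass the threshold of 0.01 (adjusted p 0.0313, 0.377 and 0.0443). That fit called 0.309%, 0.854% and 0.512% of events in the 3 genotypes.

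The 250 bases before the downstream Casp8 start are shown because the exon that begins there was called higher in all 3 genotypes (RefSeq, GRCm38, chr1:58802252-58802501, plus strand). Beside it stand the windows of Casp4 (chr9:5308599-5308848, plus strand) and Nlrp3 (chr11:59541319-59541568, plus strand), which rose most among the pyroptosis genes. Capitals mark matches to the NF-κB consensus on either strand.
Casp8: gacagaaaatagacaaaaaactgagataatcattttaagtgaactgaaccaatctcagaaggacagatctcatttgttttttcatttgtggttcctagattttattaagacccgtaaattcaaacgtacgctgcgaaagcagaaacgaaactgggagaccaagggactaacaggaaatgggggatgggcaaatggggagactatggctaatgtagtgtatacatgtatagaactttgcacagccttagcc
Casp4: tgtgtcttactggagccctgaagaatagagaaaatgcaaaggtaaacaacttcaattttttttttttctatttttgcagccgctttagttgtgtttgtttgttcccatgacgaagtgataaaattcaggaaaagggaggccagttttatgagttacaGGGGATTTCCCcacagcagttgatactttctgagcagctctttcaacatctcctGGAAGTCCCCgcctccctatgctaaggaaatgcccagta
Nlrp3: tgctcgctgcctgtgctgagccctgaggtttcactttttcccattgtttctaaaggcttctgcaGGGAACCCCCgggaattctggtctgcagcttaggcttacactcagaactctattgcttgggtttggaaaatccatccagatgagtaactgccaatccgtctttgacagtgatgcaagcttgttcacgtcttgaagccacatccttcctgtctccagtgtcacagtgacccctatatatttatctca

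RefSeq windows matched 8 of the 10 genes, with 11 windows in all; Zbp1 and Gsdmd were not among them. A match to the NF-κB consensus was found in 3 windows, a pair of overlapping Casp4 windows and 1 of Nlrp3. Matches to the NF-κB consensus began 93, 92 and 39 bases before the Casp4 start, the first pair overlapping, and 186 bases before the Nlrp3 start. The windows of 7.25% of 32851 RefSeq promoters held such a match. The interferon-stimulated response element core (GAAA, any 2 bases, GAAA), present in 2.98% of windows, matched none of the 11 on either strand. The gamma-activated site core TTCNNNGAA, present in 7.02% and the same on both strands, matched 1 window, of Ripk1. A match describes letters and not a bound site, and the Casp8 window held no match to the 3 motifs.

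Nlrp3 (ENSMUSG00000032691, chr11:59541568-59566956, plus strand), the inflammasome sensor, rose in all 3 genotypes. It had 4.93, 5.97 and 5.44 FPKM in mock-treated TLR4-WT and 55.6, 45.3 and 49.5 FPKM after LPS (2.99, interval 2.61 to 3.36, adjusted p 1.51e-09). In TLR4-K730R it went from 6.75, 6.84 and 6.37 FPKM to 90.6, 81.4 and 49.7 FPKM, and in TLR4-K810R from 5.81, 4.88 and 6.20 FPKM to 57.9, 58.8 and 70.5 FPKM. LPS libraries of the variants reached higher than those of TLR4-WT, but the differences of 0.51 and 0.31 were not called (adjusted p 0.566 and 0.321). Its main first exon, chr11:59541568-59541603, made up 71.1% ± 37 of its first-exon FPKM in mock-treated TLR4-WT and 96.2% ± 5.0 after LPS, a shift that did not pass the threshold (adjusted p 0.0141).

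Casp4 (ENSMUSG00000033538, chr9:5308828-5336783, plus strand) had 7.23, 9.32 and 8.62 FPKM in mock-treated TLR4-WT and 79.8, 80.4 and 59.1 FPKM after LPS. It rose by 2.97 (2.49 to 3.45, adjusted p 2.82e-08), and by 2.85 and 2.70 in TLR4-K730R and TLR4-K810R. Casp1 (ENSMUSG00000025888, chr9:5298517-5307265, plus strand), its neighbour on the chromosome, rose by less. It went from 16.1, 21.3 and 13.3 FPKM to 68.4, 81.8 and 57.3 FPKM in TLR4-WT (1.98, 1.62 to 2.34, adjusted p 1.05e-07) and rose by 1.83 and 1.56 in the variants. Neither caspase was called between genotypes. In LPS-treated TLR4-K730R the Casp1 libraries, at 55.1, 49.2 and 55.1 FPKM, lay below all 3 of TLR4-WT (-0.36, limma adjusted p 0.649).

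Gsdmd (ENSMUSG00000022575, chr15:75862327-75867408, plus strand) started from the highest resting level of the 9 genes in TLR4-WT. It had 36.7, 36.6 and 38.5 FPKM in mock-treated TLR4-WT and 91.7, 86.6 and 77.4 FPKM after LPS, a rise of 1.17 (0.88 to 1.45, adjusted p 3.06e-06). It rose by 1.36 in TLR4-K730R and 1.30 in TLR4-K810R. The value rests on first exons, since the listed last exons of Gsdmd average 0.944 FPKM over the libraries, and on those the call was lost in TLR4-WT (0.11, adjusted p 0.758) and TLR4-K810R (0.051, adjusted p 0.905), and in TLR4-K730R the direction turned (-0.41, adjusted p 0.222).

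Exon 3 of Gsdmd was listed in 2 forms that share their end. The longer form, chr15:75864244-75864436, is in an 11-exon transcript, and the shorter, chr15:75864355-75864436, is in an 8-exon transcript; their 193 and 82 bases are coding. In mock-treated TLR4-K730R the shorter form made up 0.825%, 1.06% and 0.563% of exon 3 FPKM, and after LPS 28.6%, 28.0% and 24.3%. In TLR4-WT it went from 13.8%, 18.5% and 3.37% to 25.7%, 27.4% and 20.9%. In TLR4-K810R it went from 6.90%, 8.91% and 21.7% to 18.8%, 16.1% and 24.4%, and these overlapped. The change was called in TLR4-K730R (3.17 on the log2 ratio scale, 2.09 to 4.24, adjusted p 0.00393), and not in TLR4-WT (1.22, adjusted p 0.288) or TLR4-K810R (0.63, adjusted p 0.685). The call was lost when any library of TLR4-K730R was left out (adjusted p 0.0139 to 0.0216). The response did not differ from that of TLR4-WT by its own test (1.94, adjusted p 0.964).

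Pycard (ENSMUSG00000030793, chr7:127989708-127993867, minus strand) was the 1 member called lower after LPS. It had 26.5, 27.5 and 29.9 FPKM in mock-treated TLR4-WT and 13.7, 17.5 and 17.3 FPKM after LPS, and fell by 0.76 (interval -1.19 to -0.33, adjusted p 0.00562). In TLR4-K730R it fell by 1.24 (-1.67 to -0.81, adjusted p 0.000106), from 29.1, 50.0 and 26.2 FPKM to 11.4, 13.5 and 16.7 FPKM. In TLR4-K810R it had 30.2, 24.2 and 32.9 FPKM in mock and 18.5, 17.8 and 16.1 FPKM after LPS, with a difference of -0.70 that was not called (adjusted p 0.0117). On last exons alone the calls were lost in TLR4-WT (-0.58, adjusted p 0.616) and in TLR4-K730R (-1.46, adjusted p 0.18). The TLR4-WT call was also lost under the median-of-ratios scaling (-0.45, adjusted p 0.0948), with quantile normalization (-0.61, adjusted p 0.0224) and without mock replicate 1, 2 or 3 or LPS replicate 1 or 2 of TLR4-WT (adjusted p 0.0107 to 0.0303), or without replicate 1, 2 or 3 of every group (adjusted p 0.0101 to 0.0818). The TLR4-K810R difference was called in a fit of its own 2 groups (adjusted p 0.00844), without mock replicate 2 of TLR4-K810R (-0.82, adjusted p 0.00925) and without mock replicate 2 or 3 of TLR4-K730R (adjusted p 0.00171 and 0.00815).

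**Figure D3:**
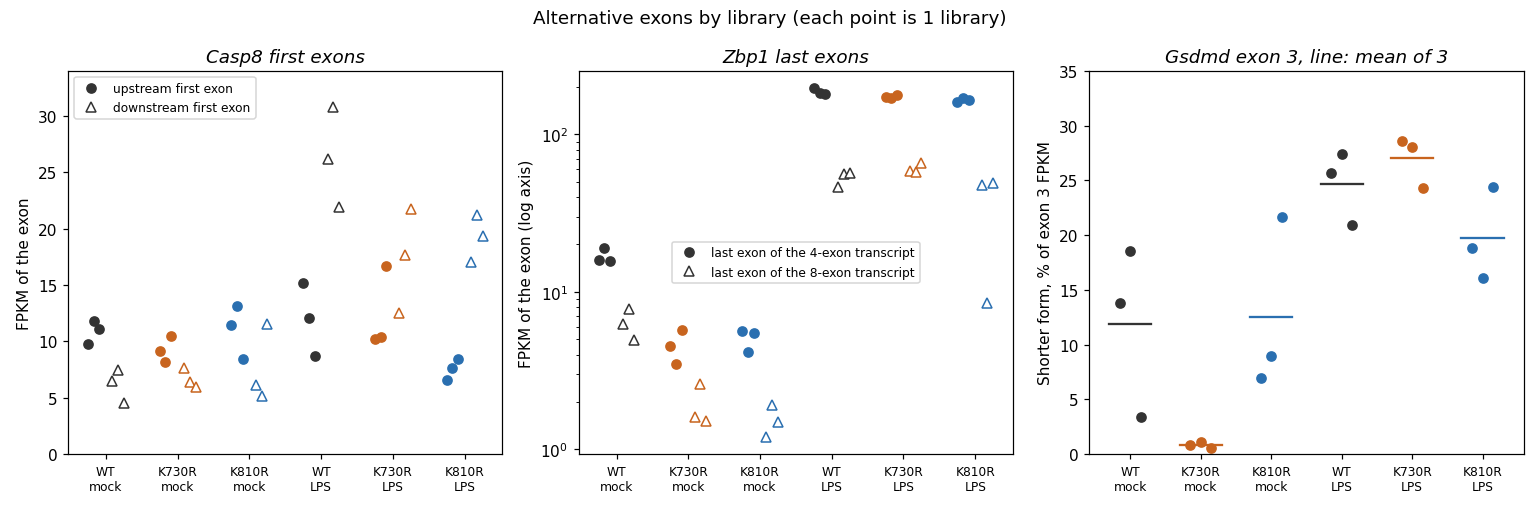
FPKM of the 2 first exons of Casp8 and of the 2 last exons of Zbp1 (log axis) in each library, and the percent of Gsdmd exon 3 FPKM in the shorter form, with the mean of 3. The downstream Casp8 exon rises from at most 11.5 FPKM in mock to at least 12.6 FPKM after LPS, and the shorter Gsdmd form is at 0.563% to 1.06% in mock-treated TLR4-K730R.

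The third question was whether the genotypes differ after LPS. No member was called in LPS-treated TLR4-K730R or TLR4-K810R against TLR4-WT, where 0% and 0.134% of all genes were called by limma, 0 and 13 genes. At an unadjusted p below 0.05 3 of the 9 members passed in TLR4-K730R and 5 in TLR4-K810R, as did 746 and 2118 of all genes. The median difference of the 9 genes was -0.25 and -0.27, against -0.04 and 0.11 over all genes. Between the variants no member was called in mock, after LPS or in the response, where 0.0824%, 0.0618% and 0.0103% of genes were called. At an unadjusted p below 0.05, 0 members passed in these comparisons, beside 1013, 1822 and 838 of the 9707 genes.

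**Figure D4:**
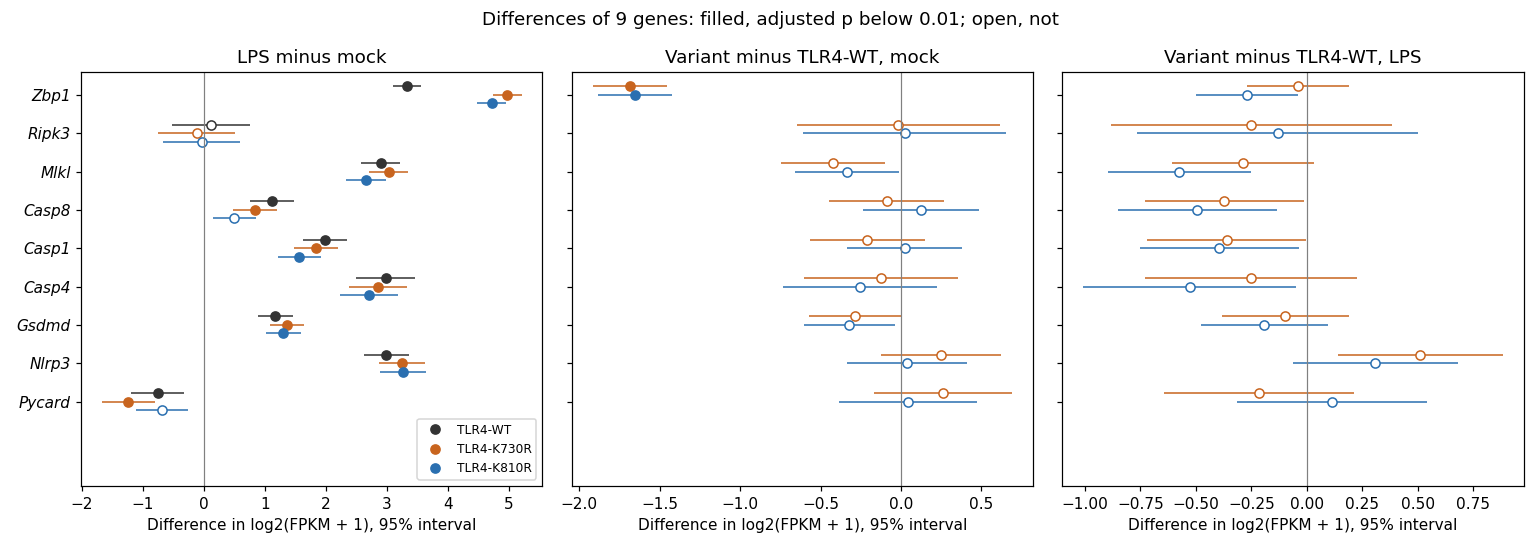
Differences in log2(FPKM + 1) of 9 genes with 95% intervals, for LPS against mock in each genotype and for each variant against TLR4-WT in mock and after LPS; filled points have an adjusted p below 0.01. Zbp1 at -1.69 and -1.66 in mock is the filled point of the comparisons between genotypes.

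The lists of genes that work with these members held calls in both directions after LPS, to be read against 10.4%, 9.32% and 9.08% of all genes called higher and 23.9%, 26.5% and 19.7% called lower in TLR4-WT, TLR4-K730R and TLR4-K810R. Of 26 tested inflammasome and pyroptosis partners, 13, 13 and 12 were called higher and 4, 5 and 7 lower in the 3 genotypes. The list medians were 0.73, 0.68 and 0.42. The cytokine Il1b, a substrate of caspase-1, had 2.06 to 3.34 FPKM in mock-treated TLR4-WT and 1383 to 2026 FPKM after LPS, and rose by 8.85, 8.31 and 8.15. Il1a rose by 5.97, 6.23 and 5.48. The guanylate-binding proteins Gbp2 and Gbp5, which help caspase-11 reach bacterial LPS, also rose. The values for TLR4-WT, TLR4-K730R and TLR4-K810R were 5.24, 5.67 and 4.66 for Gbp2 and 5.95, 5.75 and 5.20 for Gbp5.

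Of 23 tested necroptosis regulators, 9, 7 and 9 were called higher and 3, 4 and 3 lower, with medians of 0.44, 0.05 and 0.25. Tnfaip3, which encodes the ubiquitin editor A20, had 26.6 to 28.2 FPKM in mock-treated TLR4-WT and 142 to 150 FPKM after LPS and rose by 2.38, 2.32 and 2.32. Its partner Tnip1 rose by 2.57, 2.82 and 2.70, and the ubiquitin ligase Birc3 by 1.51, 1.60 and 1.57. The kinase Ikbke rose by 1.52, 1.16 and 1.31, and Adar, an RNA editor that limits ZBP1 activation, by 1.18, 1.59 and 1.47. Cflar, which encodes the caspase-8 partner cFLIP, rose by 1.27 in TLR4-WT (adjusted p 0.00982) and by 1.70 in TLR4-K810R (adjusted p 0.00153), and differed by 0.89 in TLR4-K730R without a call (adjusted p 0.0564).

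Of 14 tested interferon signalling genes, 8, 7 and 8 were called higher and 1, 2 and 1 lower. Irf7 rose by 2.95, 5.95 and 5.47 and Usp18 by 3.52, 5.02 and 4.94. Irf1 rose by 2.32, 2.45 and 1.64. Of 13 tested intrinsic apoptosis genes, 3 were called higher in each genotype and 5, 6 and 7 lower. Cycs, cytochrome c, rose by 1.65, 1.23 and 1.09, while the BH3-only gene Bcl2l11 fell by 1.51, 1.5 and 1.75 and Bbc3 by 1.07, 1.11 and 1.34. Of 10 tested genes of ESCRT membrane repair, which reseals membranes holed by MLKL or gasdermin D, 1 was called higher in each genotype, Chmp4b (1.09, 1.1 and 0.98), and 2, 2 and 1 lower. These counts were near the shares over all genes tested, 10.4%, 9.32% and 9.08% called higher and 23.9%, 26.5% and 19.7% called lower. None of the necroptosis, inflammasome, apoptosis or ESCRT genes was called between genotypes.

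The genes most like 6 of the members over the 18 libraries were taken from 6707 tested genes by Pearson's r of log2(FPKM + 1). The libraries share their split into mock and LPS, so the values are a description only. Zbp1 was closest to Parp12, Ifi35, Ifit1, Usp18 and Ifit3 (Pearson r 0.994 to 0.996). Mlkl was closest to Pdpn, Cd274, Phf11b, Mx2 and Batf2 (r 0.995 to 0.996), and Casp4 to Mx2, Phf11a, Cxcl10, Isg20 and Car13 (r 0.99 to 0.993). Nlrp3 was closest to Ets2, Il1b, Pid1, Tnf and Gpd2 (r 0.991 to 0.994), and Gsdmd to Mx1, Ms4a4c, Pdpn, Slamf9 and Phf11b (r 0.985 to 0.988). For Ripk3 the closest genes, Rbms2, Kdm1a, Slc7a7, Wapl and Mrps18c, reached r 0.621 to 0.70.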

How the data were processed

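RNA-seq of 18 libraries was analysed, 6 groups of 3. The authors deposited FPKM per transcript event (20 kinds of event, 80071 to 90401 rows per library); read counts and depth are not given in the sources used here, nor are the aligner and annotation. The submitters' processing notes name hg18, a human build, whereas coordinates matched mouse GRCm38 (GENCODE M21, 14126 of 14138 gene numbers). RNA was sequenced on an Illumina platform.

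FPKM was summed over the first exons and over the last exons of each gene, and the larger sum was its value, using events on its strand that overlap it (92.0% of rows overlapped; 6.24% of first- and last-exon FPKM was dropped). Genes at 1 FPKM or more in 3 libraries (9707) were fitted in limma 3.58.1 (R 4.3.3) with an intensity trend on log2(FPKM + 1), a scale that understates changes of low genes, over all 6 groups, with Benjamini-Hochberg adjustment within each of 12 contrasts and a threshold of 0.01. The scripts were tested on simulated data. Tables were handled with Python 3.11.15 and pandas 2.3.3. The members and lists were chosen with earlier results of these data known. Named genes were all members, up to 4 called genes per list and comparison with the largest difference, Irf7, Irf1, Il1b, Tnfaip3 and Tlr4, and the 5 genes most correlated with 6 members; 1 other named gene is not reported here. Fits of single exon events and of their shares (log2 of the event + 1 over the rest + 1), and Ripk1 by position, were added after seeing the data. Alternatives covered the pseudocount, filter, scaling, variance trend, library weights, replicate block, groups in the fit, exon choice, event filter, threshold and each library.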

Additional observations from a re-analysis of the deposited data

Results flagged for a closer look

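The LPS response of Zbp1 differed between genotypes, as tested with an interaction term. In TLR4-K730R it exceeded that of TLR4-WT by 1.65 on the log2(FPKM + 1) scale (limma adjusted p 0.00015), and in TLR4-K810R by 1.39 (adjusted p 0.000375). All 3 mock-treated libraries of each variant were below the 3 of TLR4-WT. After LPS the variants differed from TLR4-WT by -0.04 and -0.27, so that the larger response restates their lower mock level. With replicate number 1 or 2 left out of every group, which leaves 2 libraries a group, the differences in response were 1.66 and 1.52 in TLR4-K730R (adjusted p 0.0845 and 0.0598) and 1.42 and 1.31 in TLR4-K810R (adjusted p 0.0797 and 0.0715). Summed intestinal epithelium markers of 0.118 to 0.67 FPKM in mock-treated TLR4-WT and 53.0 to 142 FPKM in the mock-treated variants accompany these differences, and their part in them was not tested. With 3 libraries a group, no test of single outlying libraries was run.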

How the results depend on the processing

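Fits on last exons alone, which leave out members listed by their first exons, called 4, 4 and 3 members after LPS in TLR4-WT, TLR4-K730R and TLR4-K810R in place of 8, 8 and 6. Fits on first exons alone left out Zbp1 and so called 0 members in both mock comparisons and both comparisons of responses. Library weights called 1 member, Mlkl, in LPS-treated TLR4-K810R. Leaving out libraries gave 0 to 1 members in both comparisons of responses. The other 420 recomputed counts of members called stayed within 1.5 times. Ripk3 changed sign without a call, at -0.047 with library weights in TLR4-WT, at 0.24 with median-of-ratios and 0.19 with quantile normalization in TLR4-K730R, and at 0.20, 0.18 and, with library weights, 0.0503 in TLR4-K810R; without single libraries or replicate numbers it ranged from -0.0946 to 0.34, -0.72 to 0.21 and -0.25 to 0.15. On last exons Gsdmd turned to -0.41 in TLR4-K730R and was not called in TLR4-WT (0.11) or TLR4-K810R (0.051), and Zbp1 after LPS in TLR4-K730R to 0.0172 with median-of-ratios scaling. The upstream Casp8 exon in TLR4-WT ranged from -0.0723 to 0.29 without single libraries.

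Over the alternatives, counts over all genes ran from 1802 to 4599 after LPS in TLR4-WT (3328 in the reported fit), 1940 to 4739 in TLR4-K730R (3473) and 1498 to 3913 in TLR4-K810R (2797). In mock they ran from 4 to 61 for TLR4-K730R (26) and 14 to 342 for TLR4-K810R (153), and after LPS from 0 to 94 (0) and 0 to 366 (13). For the responses they ran from 0 to 7 (4) and 0 to 57 (12), and between the variants from 0 to 45 (8), 0 to 118 (6) and 0 to 5 (1). Same-numbered libraries of different groups correlated at -0.32 to 0.0993 in their deviations (median -0.02, 45 pairs). Pairs across genotypes are among these, so the values cannot settle whether mock and LPS libraries of a genotype are paired. The fit with a replicate block called 8, 8 and 6 members after LPS and Zbp1 in the same 4 comparisons, with 11 genes in place of 26 in mock-treated TLR4-K730R, 3 in place of 13 in LPS-treated TLR4-K810R, 6 in place of 12 for its response, 5 in place of 8 between variants in mock and 0 in place of 1 for their responses. Under the block the Gsdmd exon 3 share in TLR4-K730R missed the threshold (3.17, adjusted p 0.0115). Without counts, the depth of each value and its counting error remain unknown.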
